A study of Mus musculus with 6 samples.

Results

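The genes described here make the purine and pyrimidine nucleotides of DNA and RNA. They were taken from a list of 34 genes of nucleotide synthesis and its immediate surroundings, each read from 1 probe set, namely the brightest over 6 arrays among those the platform's annotation ties to a single symbol. Of the 34 genes 31 were measured, out of 22180 genes in the whole table. *Pfas* and *Nme2* had only probe sets shared with another symbol and *Impdh2* had none in the annotation, so these 3 genes are not reported. Cells were mouse acute myeloid leukaemia cells on a C57BL/6J background, all driven by the fusion oncogene MLL-AF9 and all untreated. The study compared 3 samples of leukaemia with an Evi1 transgene (Evi1 Tg) and 3 samples of leukaemia of wild-type origin (WT), each made from 10000 sorted cells positive for green fluorescent protein. Evi1 is a zinc finger transcription factor encoded by *Mecom*. The sources used here give neither the promoter and form of the transgene nor the ages of the mice, and they do not say whether the samples of a group came from separate animals. The p-values therefore measure the spread between samples, which may be technical. The series title links EVI1 to a change of metabolism, to which nucleotide synthesis belongs.

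Cells obtain nucleotides along 2 routes. De novo synthesis builds the purine ring on phosphoribosyl pyrophosphate (PRPP), a form of activated ribose, up to inosine monophosphate (IMP), and builds the pyrimidine ring up to uridine monophosphate (UMP). Salvage recycles free bases and nucleosides with phosphoribosyltransferases and nucleoside kinases. Ribonucleotide reductase and thymidylate synthase then provide the deoxynucleotides for DNA, and many of these genes are known to be transcribed most in dividing cells, under factors such as MYC and E2F.

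Promoter sequences are shown for 5 genes on which the results below turn. They run from 250 bases before to 50 bases after the annotated start, were taken from RefSeq on GRCm38.p6, and are written on the strand of the gene. Capitals mark the letters of an E-box (CACGTG, bound by MYC with its partners), of a CCAAT box (CCAAT, bound by the factor NF-Y), or of an E2F motif. The E2F motif was searched as TTGGCGC and also in the form TTCCCGC, and every motif was searched on both strands. *Ppat* and *Paics*, which encode enzymes of the purine ring, lie head to head on chromosome 5, and their annotated ends overlap by 277 bases. The windows are chr5:76951529-76951828 (minus strand) for *Ppat*, chr5:76951052-76951351 (plus strand) for *Paics*, chr16:33966989-33967288 (minus strand) for *Umps*, chr1:167285078-167285377 (minus strand) for *Uck2* and chr12:24708004-24708303 (plus strand) for *Rrm2*. The *Uck2* window surrounds a start that lies within the annotated span of the gene and not at its outer end.
Ppat: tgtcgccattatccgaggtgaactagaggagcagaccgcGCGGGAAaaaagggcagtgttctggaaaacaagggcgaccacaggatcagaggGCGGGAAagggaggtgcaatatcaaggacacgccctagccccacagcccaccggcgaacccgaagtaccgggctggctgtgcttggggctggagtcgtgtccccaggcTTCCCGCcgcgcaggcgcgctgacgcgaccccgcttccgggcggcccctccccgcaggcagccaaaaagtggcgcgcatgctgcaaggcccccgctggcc
Paics: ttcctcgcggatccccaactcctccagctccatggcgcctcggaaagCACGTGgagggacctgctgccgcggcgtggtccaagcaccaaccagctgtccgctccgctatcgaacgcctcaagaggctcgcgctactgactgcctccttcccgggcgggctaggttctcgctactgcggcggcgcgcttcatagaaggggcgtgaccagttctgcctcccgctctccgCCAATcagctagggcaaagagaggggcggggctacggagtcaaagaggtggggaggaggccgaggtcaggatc
Umps: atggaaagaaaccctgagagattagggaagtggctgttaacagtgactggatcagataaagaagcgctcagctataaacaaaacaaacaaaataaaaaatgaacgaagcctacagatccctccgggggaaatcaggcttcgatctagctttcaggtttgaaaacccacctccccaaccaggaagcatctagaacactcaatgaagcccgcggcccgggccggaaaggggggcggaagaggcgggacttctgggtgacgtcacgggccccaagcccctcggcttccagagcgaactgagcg
Uck2: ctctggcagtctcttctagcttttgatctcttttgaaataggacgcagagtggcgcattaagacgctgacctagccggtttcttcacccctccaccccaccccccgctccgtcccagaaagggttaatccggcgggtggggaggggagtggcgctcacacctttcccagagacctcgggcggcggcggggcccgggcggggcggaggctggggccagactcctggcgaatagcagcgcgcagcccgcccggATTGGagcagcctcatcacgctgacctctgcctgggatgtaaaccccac
Rrm2: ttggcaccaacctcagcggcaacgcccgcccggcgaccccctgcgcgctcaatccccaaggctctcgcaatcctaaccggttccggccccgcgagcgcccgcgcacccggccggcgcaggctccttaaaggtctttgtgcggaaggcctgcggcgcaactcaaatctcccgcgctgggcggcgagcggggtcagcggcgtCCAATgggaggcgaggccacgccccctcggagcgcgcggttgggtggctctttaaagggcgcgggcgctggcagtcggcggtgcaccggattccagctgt
The *Ppat* window holds 3 E2F matches, the *Paics* window 1 E-box and 1 CCAAT box, the *Uck2* and *Rrm2* windows 1 CCAAT box each, and the *Umps* window no match. Windows were found for 31 of the 34 listed genes. A gene with several windows was counted once, as holding a motif if any of its windows did. These are not the same 31 genes as those measured. *Impdh2* and *Nme2* had a window but no measured value, and *Dhodh* and *Rrm2b* were measured but had no window. *Impdh2* is among the genes that hold each of the motifs. An E-box stood in 7 of these 31 genes (22.6%), against 8.09% of all 27025 genes with a window, expressed or not. An E2F match also stood in 7 of them (22.6%), against 7.79% of all genes. These shares rest on few genes. The CCAAT box, at 38.7%, was near the share of all genes (41.1%). A match is a description of letters in the window and not a bound site, and its link to the intensities was not tested.

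Median intensities lay between 51.6 and 55.4 on the 6 arrays, whose number limits the precision of every value, and 0.1 is the smallest two-sided p that an exact permutation test can reach with 3 arrays in each group. An intensity of 85.1, below which lay the means of 90% of 64 genes silent in blood cells, was taken as the level of background, and 30 of the 31 nucleotide genes lay above it. *Mecom* stayed below it in both groups, at a mean of 38.6 in Evi1 Tg and 36.9 in WT (log2 difference 0.06, SE 0.09, limma adjusted p = 0.89), so the group labels were not checked by the gene of the transgene. Of 14 myeloid markers 6 had a difference between Evi1 Tg and WT above 0 and 8 below. *Mpo*, *Elane* and *Meis1* were higher on every Evi1 Tg array (3 of 14, where 7.08% of all genes were). *Ptprc* was lower on every one (1 of 14, where 7.47% of all genes were). *Mpo* had 1192, 863 and 525.3 in Evi1 Tg 1, 2 and 3, against 92.7, 68.13 and 252.5 in WT 1, 2 and 3. Its difference was 2.8 (SE 0.51, limma adjusted p = 0.139). All 14 of 14 myeloid markers had a mean over the arrays above background, among them the surface protein *Cd33* and the transcription factor *Spi1*, and 8 of 39 markers of other cell types did. None of the 9 measured markers of T and NK cells and none of the 6 of B cells had a mean log2 intensity over the arrays above it. Of the 8 markers of mast cells, basophils and eosinophils 2 did, and 7 of the 8 had a difference between Evi1 Tg and WT below 0 (median -0.33). Their summed intensity was 434.7, 409.9 and 502.3 in Evi1 Tg 1, 2 and 3, against 492.2, 1248 and 817.3 in WT 1, 2 and 3. *Cpa3*, the mast cell carboxypeptidase, had 26.3, 29.9 and 26.1 in Evi1 Tg 1, 2 and 3, against 25.1, 621.3 and 239.4 in WT 1, 2 and 3, so that it was high on WT 2 and WT 3 alone.

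The array WT 3 stood apart from WT 1 and WT 2 in the nucleotide genes. It was the highest of the WT arrays in 25 of the 31 genes (80.6%, against 35.2% of all genes) and the highest of all 6 arrays in 11 (35.5%, against 19.3% of all genes). Genes of S phase and replication, which mark dividing cells, were likewise lower on WT 1 and WT 2 than on the other 4 arrays. Their median deviation from the mean of each gene over the 6 arrays was 0.16, 0.36 and 0.30 on the log2 scale in Evi1 Tg 1, 2 and 3, against -0.68 and -0.55 in WT 1 and WT 2 and 0.33 in WT 3. All 29 of the 29 measured genes of that list and all 24 of 24 of G2 and mitosis were highest in WT 3 among the WT arrays. Summed intensity of the 4 measured megakaryocyte markers, of which *Gp9*, *Pf4* and *Ppbp* lay above background, ran the other way, at 256.7 to 338.9 in Evi1 Tg, 478.4 in WT 1, 602.9 in WT 2 and 254.4 in WT 3. This sum followed *Pf4* and *Ppbp*, with differences of -0.98 and -0.99, while *Gp9* had 0.21 and *Itga2b* 0.08. The part of any of these lists in the results below was not tested, and in RNA of bulk cells fewer cells of a type and less RNA per cell cannot be told apart. The labels give no reason to set WT 3 aside, so the results are given with WT 3, and many of them also without it.

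**Figure D1:**
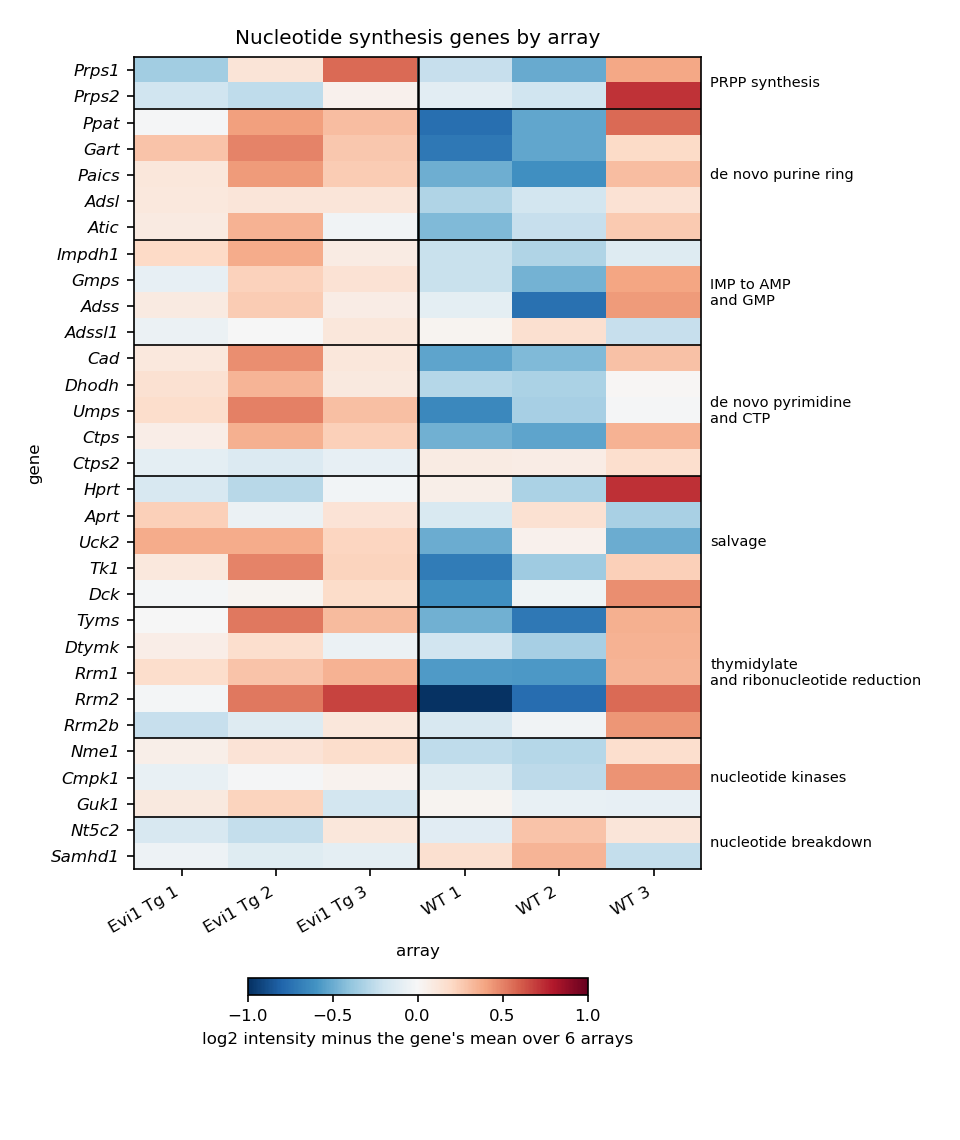
Each row is 1 of the 31 measured genes, grouped by role, and each column 1 array, Evi1 Tg on the left and WT on the right; colour gives log2 intensity minus the mean of the gene over the 6 arrays. Most genes of the purine ring, of pyrimidine synthesis and of ribonucleotide reduction are blue in WT 1 and WT 2 and red in WT 3, while *Adssl1*, *Aprt*, *Uck2* and *Samhd1* are blue in WT 3.

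Over all 6 arrays most nucleotide genes had higher means in Evi1 Tg, yet none passed the test. The difference between Evi1 Tg and WT on the log2 scale was above 0 for 24 of the 31 genes (77.4%, against 53.5% of all genes). Its median was 0.25, against 0.01 over all genes. With limma and Benjamini-Hochberg adjustment over all 22180 genes at a threshold of 0.05, 0 of the 31 genes passed, where 0.113% of all genes did. The smallest adjusted p was 0.214, for *Impdh1*. At an unadjusted limma p under 0.05 there were 5 higher and 1 lower, where 4.5% and 5.8% of all genes were. The arrays of Evi1 Tg and WT did not overlap for 6 genes. *Gart*, *Impdh1*, *Dhodh*, *Umps* and *Uck2* were higher on every Evi1 Tg array (5 of 31, where 7.08% of all genes were), and *Ctps2* was lower on every one (1 of 31, where 7.47% of all genes were).

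Without WT 3, 7 genes were called higher in Evi1 Tg and 0 lower, where 1.73% and 0.78% of all genes were called. The 7 were *Ppat*, *Gart* and *Paics* of the purine ring, *Umps* and *Ctps* of pyrimidine synthesis, and *Rrm1* and *Rrm2*, the subunits of ribonucleotide reductase. WT 3 was singled out by being high among the WT arrays in most of these same nucleotide genes. Leaving it out therefore lowers their WT means by construction. All p-values and calls without WT 3, here and for the other genes below, are given as description and not as a test. In that fit 25 of 29 genes of S phase and replication and 21 of 24 of G2 and mitosis were called higher as well. All 3 Evi1 Tg arrays then lay above WT 1 and WT 2 for 21 of the 31 nucleotide genes, where 17.7% of all genes did so, and below both for 2, where 14.7% did. When any other single array was left out, 0 of the 31 genes passed. Leaving out WT 1 or WT 2 brought several differences nearer to 0 and others further from it. Without WT 1 the difference was 0.34 for *Tk1*, 0.12 for *Atic* and 0.14 for *Adsl*, against 0.55, 0.27 and 0.23 over all 6 arrays. Without WT 2 it was 0.34 for *Tyms*, 0.28 for *Ctps* and -0.10 for *Nt5c2*, against 0.56, 0.44 and -0.19 over all 6 arrays. It lay further from 0 without WT 2 for *Uck2* (0.81), *Aprt* (0.34), *Hprt* (-0.55) and *Prps2* (-0.44). Over all 6 arrays these had 0.63, 0.21, -0.32 and -0.27. With WT 3 left out, 26 of the 31 genes had a difference above 0, as did 51.5% of all genes.

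**Figure D2:**
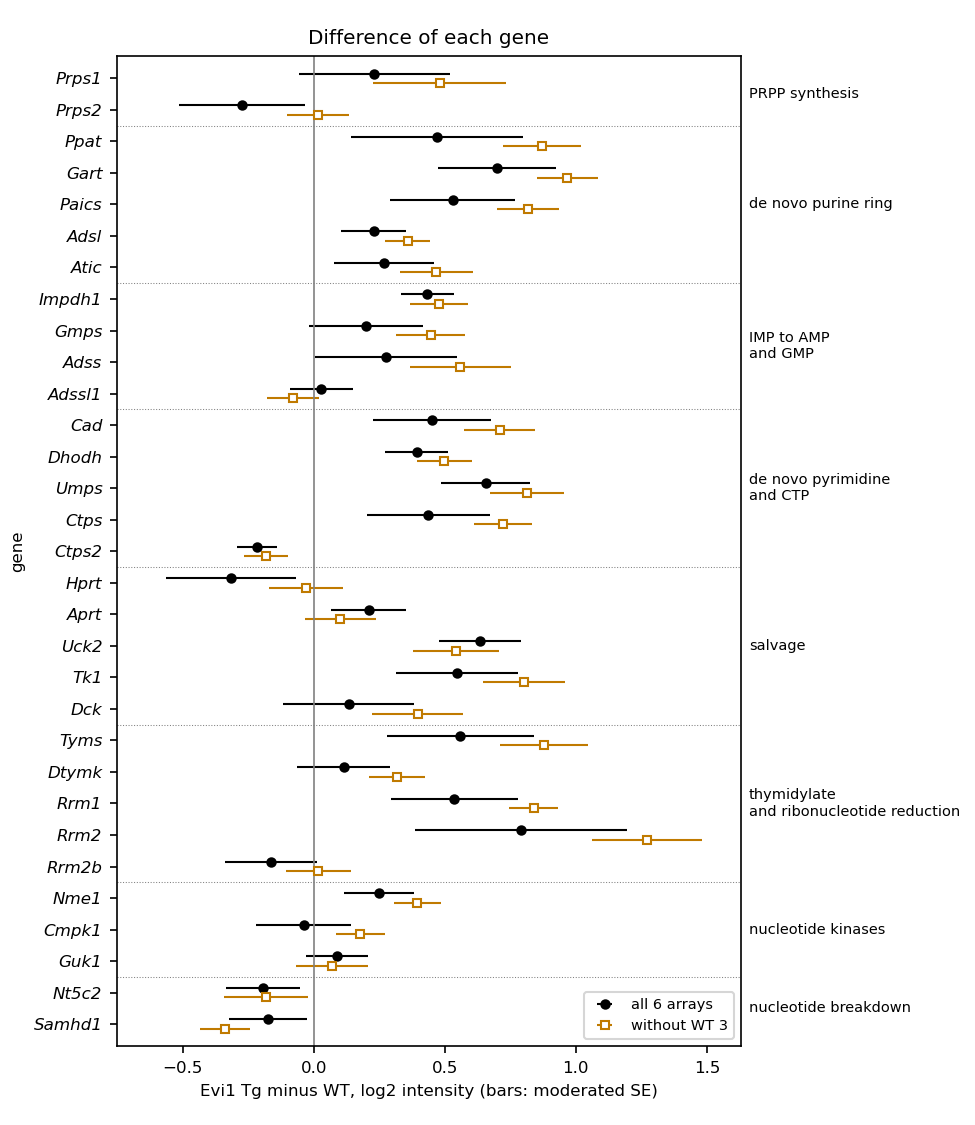
Each row is 1 gene and the horizontal axis gives Evi1 Tg minus WT in log2 intensity with the moderated standard error; filled circles use all 6 arrays and open squares leave out WT 3. Without WT 3 the bars are shorter for *Ppat*, *Gart*, *Paics*, *Rrm1* and *Rrm2* and their points lie further above 0, while *Uck2* and *Ctps2* stay close to where they were.

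PRPP synthetases supply the activated ribose for both routes. *Prps1* had intensities of 157, 218 and 295 in Evi1 Tg 1, 2 and 3, against 170.3, 141 and 260.3 in WT 1, 2 and 3. Its groups overlapped and its difference was 0.23 (SE 0.29), or 0.48 (SE 0.25) without WT 3. It was near 0 when WT 2 (0.04) or Evi1 Tg 3 (0.0065) was left out. *Prps2*, the other synthetase, had 265, 255 and 313 in Evi1 Tg 1, 2 and 3, against 282, 264 and 500.1 in WT 1, 2 and 3. WT 3 was far above the other 5 arrays there, which lay close together, and the difference was -0.27 (SE 0.24) with WT 3 and 0.02 (SE 0.12) without it. Both genes lie on the X chromosome.

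All 5 measured genes of the purine ring had positive differences, and their median of 0.47 became 0.82 without WT 3. *Gart* (chromosome 16, 91621395 to 91646972) encodes an enzyme with 3 activities in the pathway and had 673, 777 and 664 in Evi1 Tg 1, 2 and 3, against 336, 384 and 628 in WT 1, 2 and 3. Every Evi1 Tg array lay above every WT array, though WT 3 came close, and the difference was 0.70 (SE 0.23, limma adjusted p = 0.344), or 0.97 (SE 0.12, limma adjusted p = 0.0211) without WT 3. The probe sets of *Gart* disagreed. The 2 dimmer ones had differences of 0.13 (SE 0.15) and -0.03 (SE 0.13), and the mean over the 3 gave 0.27.

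*Ppat* encodes the amidotransferase of the first committed step and had intensities of 453, 606 and 565 in Evi1 Tg 1, 2 and 3, against 271, 318 and 676 in WT 1, 2 and 3. WT 3 was the highest of the 6 arrays and WT 1 the lowest, so that the groups overlapped. The difference was 0.47 (SE 0.33, limma adjusted p = 0.717) and became 0.87 (SE 0.15, limma adjusted p = 0.0429) without WT 3, and was 0.21 without WT 1. *Paics*, the neighbour of *Ppat* with its start in the opposite direction, encodes the bifunctional carboxylase and synthetase and had 1184, 1464 and 1303 in Evi1 Tg 1, 2 and 3, against 778, 713 and 1352 in WT 1, 2 and 3. WT 1 and WT 2 again lay far below the other 4 arrays, with a difference of 0.53 (SE 0.24) with WT 3 and 0.82 (SE 0.12, limma adjusted p = 0.0302) without it. *Adsl*, which acts in the ring and again on the way to AMP, had a difference of 0.23 (SE 0.12), and *Atic*, which closes the ring, one of 0.27 (SE 0.19). Without WT 3 these were 0.36 and 0.47.

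From IMP the pathway divides towards guanine and adenine nucleotides. *Impdh1* (chromosome 6, 29200436 to 29216364), one form of the dehydrogenase that commits IMP to guanine nucleotides, had 80.1, 90.2 and 74.1 in Evi1 Tg 1, 2 and 3, against 59.7, 56.8 and 64.0 in WT 1, 2 and 3. Its groups did not overlap and its difference was 0.43 (SE 0.10), of nearly the same size without WT 3 (0.48, SE 0.11, limma adjusted p = 0.0862). All its WT values, and 2 of its 3 Evi1 Tg values, lay below the background intensity of 85.1, so the size of this difference is bounded by background. *Gmps*, the next enzyme towards GMP, had intensities of 798, 992 and 934 in Evi1 Tg 1, 2 and 3, against 725, 608 and 1106 in WT 1, 2 and 3. WT 3 was the highest of the 6 arrays, and the difference of 0.20 (SE 0.22) was smaller than its error, at 0.45 (SE 0.13) without WT 3 and 0.01 without WT 2. *Adss*, which starts the adenine branch, had 1208, 1354 and 1195 in Evi1 Tg 1, 2 and 3, against 1065, 676 and 1530 in WT 1, 2 and 3. WT 2 stood low and WT 3 high there, with a difference of 0.28 (SE 0.27) that had the opposite sign without WT 2 (-0.03) and was 0.56 without WT 3. *Adssl1*, known as the form of muscle, had a difference of 0.03 (SE 0.12), and of -0.08 without WT 3.

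Of the 5 genes of pyrimidine and CTP synthesis, 2 were higher on every Evi1 Tg array, where 7.08% of all genes were. In the other direction 1 was lower on every one, where 7.47% of all genes were, and 0 of the 5 passed. *Umps* (chromosome 16, 33954782 to 33967038) encodes the enzyme that turns orotate into UMP and had intensities of 959.8, 1204 and 1047 in Evi1 Tg 1, 2 and 3, against 544, 675 and 841 in WT 1, 2 and 3. All 3 Evi1 Tg arrays exceeded all WT arrays, and WT 3 was the highest of the WT arrays by a smaller margin than in *Ppat*. On the log2 scale the level was 10.06 ± 0.17 in Evi1 Tg and 9.40 ± 0.31 in WT (SD, n = 3 each), so that Evi1 Tg was higher by 0.66 (SE 0.17, limma adjusted p = 0.246), which became 0.81 (SE 0.14, limma adjusted p = 0.0438) without WT 3. *Dhodh*, the mitochondrial enzyme that makes orotate, had 177, 202 and 172 in Evi1 Tg 1, 2 and 3, against 131, 128 and 161 in WT 1, 2 and 3. These groups did not overlap either (difference 0.39, SE 0.12, limma adjusted p = 0.317, and 0.50 without WT 3).

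*Cad*, which encodes the protein of the first 3 steps, had intensities of 287, 368 and 289 in Evi1 Tg 1, 2 and 3, against 186, 197 and 327 in WT 1, 2 and 3. WT 3 was inside the range of Evi1 Tg, and the difference was 0.45 (SE 0.23) with it and 0.71 (SE 0.13, limma adjusted p = 0.0521) without it. The CTP synthetases, which turn UTP into CTP, had differences of opposite sign. *Ctps* had 344, 421 and 388 in Evi1 Tg 1, 2 and 3, against 236, 228 and 419 in WT 1, 2 and 3. Its difference was 0.44 (SE 0.23) over 6 arrays and 0.72 (SE 0.11, limma adjusted p = 0.0356) without WT 3. *Ctps2* (chromosome X, 162901268 to 163034541) had 302, 294 and 305 in Evi1 Tg 1, 2 and 3, against 342, 340.2 and 364 in WT 1, 2 and 3. It was lower on every Evi1 Tg array, with little spread within either group. The difference was -0.22 (SE 0.08, limma adjusted p = 0.391), and -0.18 (SE 0.08) without WT 3.

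**Figure D3:**
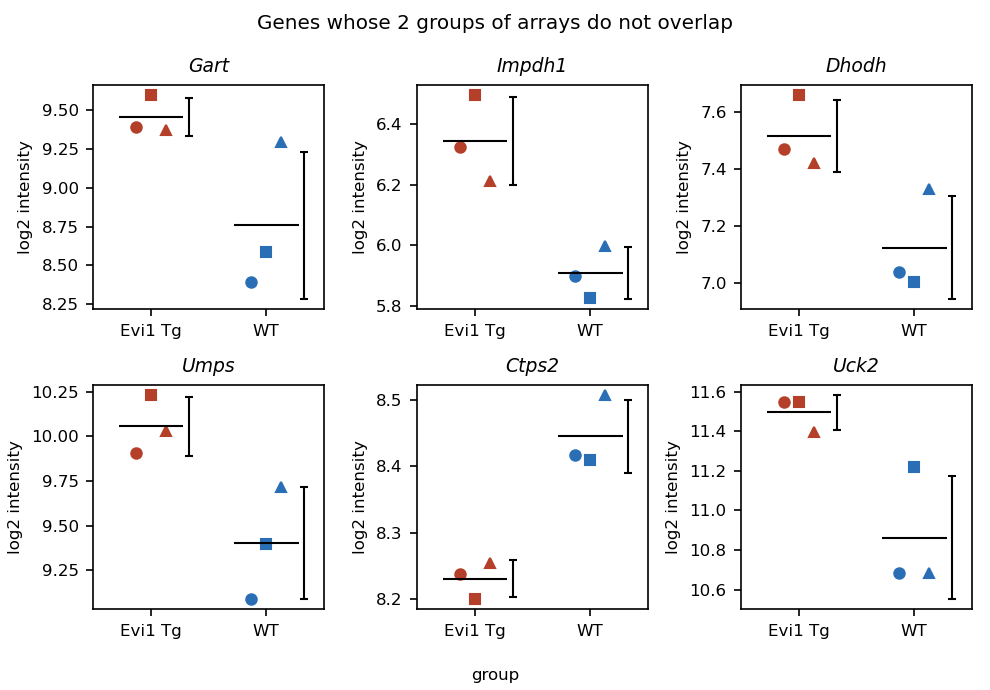
Each panel shows 1 of the 6 genes whose groups of arrays did not overlap, with log2 intensity on the vertical axis (panels have their own scales, not starting at 0), Evi1 Tg on the left and WT on the right; circles, squares and triangles are arrays 1, 2 and 3, the line is the mean and the bar the SD. *Ctps2* is lower in Evi1 Tg and the other 5 are higher, and WT 3 is the WT array nearest to the Evi1 Tg arrays for *Gart*, *Impdh1*, *Dhodh* and *Umps* but not for *Ctps2* and *Uck2*.

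The 5 salvage genes had differences from -0.32 to 0.63, and 4 of them lay above 0. *Uck2* (chromosome 1, 167222895 to 167285933), a kinase of uridine and cytidine, had intensities of 2992, 2992 and 2691 in Evi1 Tg 1, 2 and 3, against 1645, 2386 and 1642 in WT 1, 2 and 3. All Evi1 Tg arrays lay above all WT arrays, with WT 3 as low as WT 1, unlike most of the other genes. The difference was 0.63 (SE 0.16, limma adjusted p = 0.231), or 0.54 without WT 3, and a dimmer probe set of the gene had 0.66 (SE 0.22). *Tk1*, the thymidine kinase of S phase, had 608, 796 and 658 in Evi1 Tg 1, 2 and 3, against 348, 440.4 and 665 in WT 1, 2 and 3. WT 3 lay within the range of Evi1 Tg, and the difference was 0.55 (SE 0.23) with it and 0.80 (SE 0.16, limma adjusted p = 0.0554) without it. *Dck*, which phosphorylates deoxycytidine, had a difference of 0.13 (SE 0.25), or 0.40 without WT 3, with WT 1 the lowest of the 6 arrays (296) and WT 3 the highest (625).

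The purine phosphoribosyltransferases, which salvage free bases, were not alike. *Hprt*, which recovers hypoxanthine and guanine, had 1177, 1085 and 1292 in Evi1 Tg 1, 2 and 3, against 1373, 1057 and 2192 in WT 1, 2 and 3. WT 3 was far above the other 5 arrays, and the difference of -0.32 (SE 0.25) became -0.03 (SE 0.14) without it. *Aprt*, which recovers adenine, had intensities of 1879, 1534 and 1755 in Evi1 Tg 1, 2 and 3, against 1440, 1779 and 1276 in WT 1, 2 and 3. Here WT 3 was the lowest of the 6 arrays, and the difference was 0.21 (SE 0.14), or 0.10 without WT 3.

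Set against each other, the de novo genes (14 measured, of the purine ring, the branches from IMP, and pyrimidine and CTP synthesis) had a median difference of 0.41 and the salvage genes (5 measured) one of 0.21. Of the de novo genes 13 had a difference above 0, *Ctps2* being the exception, and of the salvage genes 4 did, *Hprt* being the exception. The median deviation of the de novo genes was 0.10, 0.35 and 0.12 in Evi1 Tg 1, 2 and 3, against -0.37, -0.39 and 0.23 in WT 1, 2 and 3. For salvage genes it was 0.11, 0.03 and 0.19 in Evi1 Tg, against -0.50, -0.05 and 0.24 in WT. In both lists WT 3 lay on the Evi1 Tg side of 0, and in salvage it lay above all Evi1 Tg arrays. The de novo median exceeded the salvage median by 0.20. On single arrays the gap between the 2 median deviations had a pooled SD within groups of 0.23. That SD describes single arrays and is not the error of the 0.20, for which none was computed. The order turned without WT 2, at -0.04. Without WT 3 the medians were 0.53 for de novo and 0.40 for salvage genes.

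**Figure D4:**
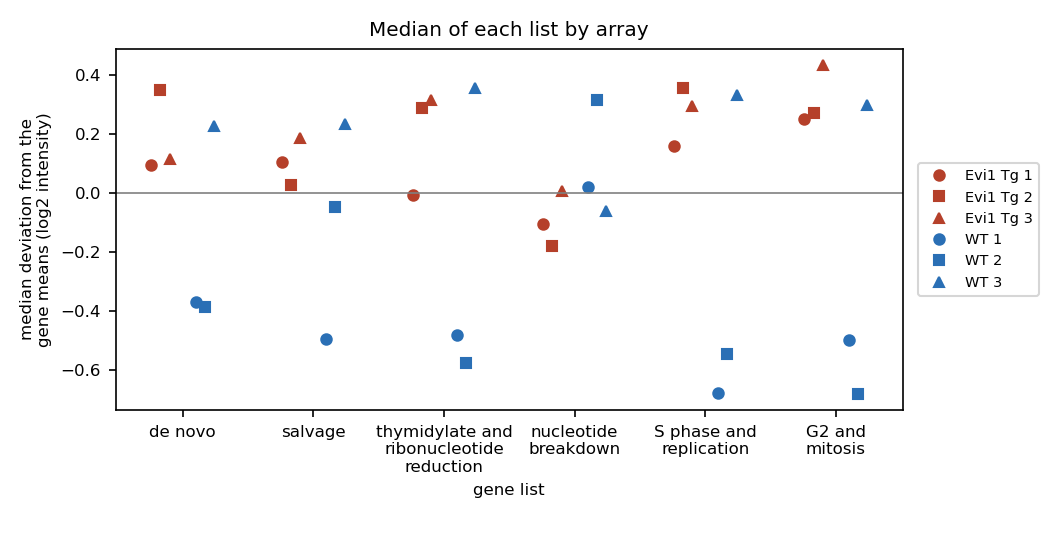
For 6 lists of genes the plot gives the median deviation from the gene means in log2 intensity on each array, red for Evi1 Tg and, to its right, blue for WT, with a different marker for each array. WT 3 (blue triangle) lies above 0, far from WT 1 and WT 2 in most lists, except in nucleotide breakdown, with 0.23 for de novo genes against -0.37 and -0.39 in WT 1 and WT 2.

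Genes for deoxynucleotides had the highest median of any role, at 0.54 with WT 3 and 0.84 without it. *Rrm2* encodes the small subunit of ribonucleotide reductase that is made in S phase, and had intensities of 477, 698 and 771 in Evi1 Tg 1, 2 and 3, against 243, 285 and 714 in WT 1, 2 and 3. WT 1 and WT 2 lay below all other arrays by a wide margin and WT 3 lay within the range of Evi1 Tg. The difference of 0.79 (SE 0.40, limma adjusted p = 0.576) became 1.27 (SE 0.21, limma adjusted p = 0.0392) without WT 3, that is, a fold of 1.73 with it and 2.41 without. Without WT 1 the difference was 0.49. A second probe set of *Rrm2*, below background on every array, had 0.24 (SE 0.11), and the mean over both gave 0.52. *Rrm1*, the large subunit, had 1998, 2164 and 2250 in Evi1 Tg 1, 2 and 3, against 1196, 1190 and 2243 in WT 1, 2 and 3. Its 4 higher arrays, WT 3 among them, lay close together, and the difference over all 6 arrays was 0.54 (SE 0.24, limma adjusted p = 0.518). Without WT 3 it was 0.84 (SE 0.09, limma adjusted p = 0.0201), the smallest adjusted p of the 31 genes in that fit.

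*Tyms*, the thymidylate synthase, had 374, 541 and 467 in Evi1 Tg 1, 2 and 3, against 269, 228 and 480.3 in WT 1, 2 and 3. Its difference was 0.56 (SE 0.28) with WT 3 and 0.88 (SE 0.17, limma adjusted p = 0.0543) without it. *Dtymk*, the kinase of thymidylate, had one of 0.12 (SE 0.18), or 0.32 without WT 3. *Rrm2b*, the small subunit known to be induced by p53, had 149.6, 160.1 and 189 in Evi1 Tg 1, 2 and 3, against 157, 170.5 and 238 in WT 1, 2 and 3. WT 3 was again the highest array, but WT 1 and WT 2 lay within the range of Evi1 Tg, and the difference was -0.16 (SE 0.17), or 0.02 without WT 3.

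Nucleotide kinases add the further phosphates, and the 3 measured ones had differences from -0.04 to 0.25. *Nme1*, a nucleoside diphosphate kinase, had intensities of 282, 299 and 306 in Evi1 Tg 1, 2 and 3, against 227, 222 and 305 in WT 1, 2 and 3. WT 1 and WT 2 were lower than the other 4 arrays, and the difference was 0.25 (SE 0.13), or 0.40 (SE 0.09, limma adjusted p = 0.0784) without WT 3. *Nme1* is closely similar to its neighbour *Nme2*, and cross-hybridisation was not tested. *Cmpk1*, the kinase of UMP and CMP, had 325, 339 and 350.3 in Evi1 Tg 1, 2 and 3, against 313, 286 and 468 in WT 1, 2 and 3. The groups overlapped, with a difference of -0.04 (SE 0.18), or 0.18 without WT 3, and *Guk1*, the kinase of GMP, had one of 0.09 (SE 0.12).

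Both genes of nucleotide breakdown had a difference below 0, and neither passed. *Nt5c2*, a cytosolic nucleotidase of purine monophosphates, had 755, 716 and 916 in Evi1 Tg 1, 2 and 3, against 779.9, 1032 and 919.5 in WT 1, 2 and 3. Its groups overlapped, with a difference of -0.19 (SE 0.14). *Samhd1*, which degrades deoxynucleoside triphosphates, had 856, 816 and 828 in Evi1 Tg 1, 2 and 3, against 989, 1122 and 749.5 in WT 1, 2 and 3. The Evi1 Tg arrays were close to each other and lay below WT 1 and WT 2 but above WT 3. The difference was -0.18 (SE 0.15) and -0.34 (SE 0.10, limma adjusted p = 0.137) without WT 3, and -0.05 without WT 2.

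Related genes outside the 34 were read from lists of the same pathway, and 0 of them passed over all 6 arrays. All 6 of the 6 measured genes that clean the nucleotide pool or feed it with deoxyuridylate had a positive difference, with a median of 0.40. The leading ones were *Nudt1*, a hydrolase of oxidised nucleotides whose WT mean lay below background, at 0.47 (SE 0.13), and the deaminase *Dctd* at 0.49 (SE 0.16). *Dut*, the dUTPase, had 401, 467 and 461 in Evi1 Tg 1, 2 and 3, against 202, 213 and 643 in WT 1, 2 and 3. Its difference was 0.55 (SE 0.42), with WT 3 the highest of the 6 arrays. Without WT 3 the difference was 1.09 (limma adjusted p = 0.0175). *Dut* was then the 1 gene of the 6 called, where 1.73% of all genes were called higher. That call follows leaving out its highest WT array and is no test.

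Among 11 genes of folate supply, which donates carbon for the purine ring and thymidylate, 7 had a difference above 0 (median 0.03, or 0.26 without WT 3). *Shmt2*, the mitochondrial serine hydroxymethyltransferase, had intensities of 1987, 2095 and 1778 in Evi1 Tg 1, 2 and 3, against 806, 1106 and 1623 in WT 1, 2 and 3. Its groups did not overlap. The difference was 0.79 (SE 0.24, limma adjusted p = 0.315), and 1.05 without WT 3 (limma adjusted p = 0.031). *Aldh1l1*, which oxidises formyl folate, had -0.27 (SE 0.08), a size bounded by background, since all its Evi1 Tg values and 2 of its 3 WT values lay below it.

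Of 19 genes of breakdown and deamination outside the 34, 11 lay above and 8 below 0. *Ampd3*, an AMP deaminase, had 549, 383 and 499 in Evi1 Tg 1, 2 and 3, against 851, 922 and 630.3 in WT 1, 2 and 3. It was lower on every Evi1 Tg array. The difference was -0.75 (SE 0.19, limma adjusted p = 0.233), and -0.91 without WT 3 (limma adjusted p = 0.0465). *Nt5e*, the ectonucleotidase CD73, had -1.01 (SE 0.30), *Entpd1*, the ectonucleotidase CD39, 0.46 (SE 0.17), and *Xdh*, the xanthine dehydrogenase, 1.13 (SE 0.44). For *Xdh* the groups overlapped, WT 3 was the lowest array (68.8, below background), and the difference was 0.72 (SE 0.37) without it. The other salvage genes and nucleoside kinases had 3 of 10 above 0 (median -0.01, or -0.14 without WT 3), led by *Dguok*, the mitochondrial deoxyguanosine kinase, at -0.28 (SE 0.12). Adenylate and other nucleotide kinases had 6 of 10 above 0 (median 0.13), and *Ak8* had -0.48 (SE 0.19). Nucleoside transporters had 6 of 7 above 0 (median 0.11), but 4 of 7 without WT 3 (median 0.03), led by *Slc29a2* at 0.37 (SE 0.13). The PRPP synthetase-associated proteins *Prpsap1* and *Prpsap2* had 0.15 (SE 0.09) and 0.21 (SE 0.17), or 0.22 and 0.39 without WT 3.

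Regulators of nucleotide genes were mixed, with 8 of 12 above 0 (median 0.12). *E2f4*, a member of the E2F family, had 1406, 1562 and 1334 in Evi1 Tg 1, 2 and 3, against 839, 932 and 923 in WT 1, 2 and 3. Its groups did not overlap, WT 3 lay with WT 1 and WT 2, and its difference was 0.67 (SE 0.09, limma adjusted p = 0.0772), and 0.70 without WT 3 (limma adjusted p = 0.036). *E2f2* had 0.45 (SE 0.14) and *Atf4*, a factor of the amino acid stress response, -0.21 (SE 0.09). For comparison with the cycle, *Mcm6*, a subunit of the replicative helicase, had 0.67 (SE 0.23) over 6 arrays and 0.95 without WT 3 (limma adjusted p = 0.0175), and the proliferation marker *Mki67* 0.46 (SE 0.22) and 0.71 (limma adjusted p = 0.0383).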

How the data were processed

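Total RNA of sorted leukaemia cells was made into biotinylated cDNA (GeneChip WT PLUS), as the labels' protocols state. The deposited table held intensity values of 34351 probe sets on 6 arrays. They ran from 17.8 to 14719 and were taken to be linear. The sources used here do not give how the authors corrected, normalized and summarised these intensity values. A change common to most genes could have been removed by that step. Analysis used log2 of each value, without a pseudocount or a filter. Probe sets were named by the platform's annotation (23521 with 1 symbol, 1814 with several, 9016 with none), and 0 symbols changed in a RefSeq table of GRCm38.p6. Groups came from the sample titles.

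Evi1 Tg was compared with WT (n = 3 each) with limma 3.58.1 (lmFit, then eBayes, in R 4.3.3), adjusted over all 22180 genes by Benjamini-Hochberg. On simulated data with independent noise for each gene, the procedure recovered 85% of 2-fold and 97% of 4-fold changes. It also called 11 unchanged genes. The simulation held no shift shared by many genes of an array, so it does not cover a departure such as that of WT 3. Differences are Evi1 Tg minus WT, with the moderated SE. Lists are described by counts and medians, with no set test. The members and lists were chosen with earlier results of these data known. Named genes were all members, *Mecom*, *Mki67* and *Mcm6*. Of each other list of the pathway or its regulators, up to 2 genes per direction with the smallest p were named. That rule was not followed for the lists of cell type markers and of the cycle. *Dut*, *Cd33*, *Spi1*, *Cpa3*, *Mpo*, *Elane*, *Meis1*, *Ptprc* and the megakaryocyte markers were named after their values were seen. Alternatives were 3 scalings or filters, 3 settings of the test, 2 rules for probe sets, a pseudocount of 16, a replicate block, averaging Evi1 Tg 1 and 2, and leaving out each array. Figures used matplotlib 3.10.9.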

Additional observations from a re-analysis of the deposited data

How the results depend on the processing

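Of 526 results of single nucleotide genes under 17 alternatives, 509 kept their sign and their side of the threshold, 7 passed it (all without WT 3) and 10 changed sign, in 7 genes. The count of 509 overstates stability, since some alternatives could not change a sign. The difference itself stays the same with eBayes trend and robust settings, without moderation, with the replicate block and over all probe sets. The mean over probe sets can change it only for *Gart*, *Uck2* and *Rrm2*. With array weights *Adssl1* had -0.035 and *Cmpk1* 0.046. When single arrays were left out, the differences ranged from -0.44 to 0.017 for *Prps2*, -0.029 to 0.56 for *Adss*, -0.078 to 0.12 for *Adssl1*, -0.14 to 0.40 for *Dck*, -0.022 to 0.32 for *Dtymk*, -0.29 to 0.018 for *Rrm2b* and -0.18 to 0.18 for *Cmpk1*. The count of nucleotide genes called was 0 under every alternative except without WT 3 (7), so leaving out single arrays gave 0 to 7. Over single arrays left out, the median of all 31 genes ranged from 0.18 (without WT 1) to 0.47 (without WT 3), that of the salvage genes from 0.17 to 0.40 and the de novo minus salvage difference from -0.035 (without WT 2) to 0.26, with 0.036 without Evi1 Tg 2. The mean over probe sets gave 0.13 for that difference, and the members with a difference above 0 numbered 22 to 26.

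Over all genes 25 were called, against 38 with eBayes trend and robust settings, 114 with array weights, 9 with the replicate block, 0 without moderation (1770 at an unadjusted p under 0.05), 9 with a pseudocount of 16, 6 with Evi1 Tg 1 and 2 averaged, and 2 to 556 with single arrays left out. Whether the replicate numbers pair the samples is not stated. Same-numbered deviations from the group means correlated at 0.189, -0.185 and 0.0614. Evi1 Tg 1 correlated best with WT 1, Evi1 Tg 2 with WT 3 and Evi1 Tg 3 with WT 2. Deviations within groups of 3 arrays are too few to decide on pairing. Under the block 0 nucleotide genes were called. The cause of the changes between settings was not tested. Intensities near background bound the difference of *Impdh1*.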
